A study of Rattus norvegicus with 28 samples.

Results

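P2rx3, Scn11a and Cacna2d1, 3 of the 32754 genes in the RNA-seq count table of rat dorsal root ganglia (DRGs), were chosen by name as channel genes associated with nociceptors, the sensory neurons that respond to harmful stimuli. They were found in the table by their Ensembl identifiers, which are ENSRNOG00000008552 for P2rx3, ENSRNOG00000032884 for Scn11a and ENSRNOG00000033531 for Cacna2d1. The study examined gene expression and chromatin accessibility in male rats with nerve injury (chronic constriction injury, CCI), hind paw inflammation (complete Freund's adjuvant, CFA) or no injury (naïve). Expression values are described here for 2 CFA libraries. Each library was made from the pooled ipsilateral lumbar DRGs, L4 to L6, of 1 Sprague-Dawley rat aged 12 weeks. They were collected 48 h after hind paw injection of CFA, an emulsion that inflames the tissue. The paper describes the injection for each hind paw but also names an ipsilateral paw, so whether 1 or both paws were injected is unclear. CFA and CCI rats were kept for the study only if they had developed mechanical hypersensitivity of the paw. The naïve and CCI expression libraries were not analysed here, so the values below are levels in inflamed rats and no change with inflammation was tested. The accessibility tables were not used here because they give regions of the rn6 genome without gene names.

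P2rx3 encodes P2X3, a cation channel opened by extracellular ATP, which damaged and inflamed tissue releases. It forms channels alone or together with P2X2 and is a classical marker of small, largely non-peptidergic nociceptors. Scn11a encodes the voltage-gated sodium channel Nav1.9, which resists tetrodotoxin and carries a persistent current near the resting potential of nociceptors. Cacna2d1 encodes the auxiliary calcium channel subunit alpha-2-delta-1, which helps calcium channels reach the membrane and presynaptic terminals and is the binding site of gabapentin and pregabalin.

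The sequence before the start of each gene is shown because the genes share a tissue but differ widely in the base composition of this window. The windows are the 250 bases before the most upstream RefSeq start of each gene in the GRCr8 assembly, which is not the rn6 assembly on which the reads were counted. They lie at chr3:90531316-90531565 for P2rx3, at chr8:128444719-128444968 for Scn11a and at chr4:20330148-20330397 for Cacna2d1, all on the minus strand. Each is printed 5′ to 3′ along its gene, and capitals mark matches to GGGCGG, the GC box, on either strand.
P2rx3: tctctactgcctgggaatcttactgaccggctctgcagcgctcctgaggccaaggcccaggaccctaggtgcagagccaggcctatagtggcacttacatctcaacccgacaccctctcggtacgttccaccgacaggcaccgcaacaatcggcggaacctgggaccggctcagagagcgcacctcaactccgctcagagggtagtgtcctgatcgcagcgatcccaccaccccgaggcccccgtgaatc
Scn11a: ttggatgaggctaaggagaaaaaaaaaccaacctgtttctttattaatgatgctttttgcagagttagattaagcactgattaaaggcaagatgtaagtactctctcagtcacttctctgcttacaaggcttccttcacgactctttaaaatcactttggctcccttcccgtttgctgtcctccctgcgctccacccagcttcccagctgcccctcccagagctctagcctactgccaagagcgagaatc
Cacna2d1: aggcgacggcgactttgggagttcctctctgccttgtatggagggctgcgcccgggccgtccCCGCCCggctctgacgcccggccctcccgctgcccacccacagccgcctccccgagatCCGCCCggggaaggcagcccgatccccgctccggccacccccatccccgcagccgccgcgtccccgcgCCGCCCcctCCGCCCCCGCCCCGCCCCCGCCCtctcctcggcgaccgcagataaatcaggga
The Cacna2d1 window was made up of 77.2% G and C, more than 97.7% of the 27457 rat promoter windows of the same length, whose median was 52%. It held 32 CpG dinucleotides, against a median of 6, and 7 matches to GGGCGG, some of which overlap. The P2rx3 window was made up of 62.4% G and C with 16 CpG dinucleotides. The Scn11a window was at 46.4% with 4 CpG dinucleotides, below the median of all windows on both measures. The GC box is held by 32.4% of all windows, and those of P2rx3 and Scn11a did not hold it. Further motifs searched on both strands were the TATA box (TATAAA), held by 13.1% of all windows, the CCAAT box, held by 34.3%, and the cyclic AMP response element (TGACGTCA), held by 1.69%. None of these 3 motifs was found in the windows shown. RefSeq lists 2 starts for P2rx3, 1 for Scn11a and 3 for Cacna2d1, so these windows cover the most upstream start only. The window before the second P2rx3 start had 54.4% G and C and 7 CpG dinucleotides and held 1 GC box and 1 CCAAT box. The windows before the other Cacna2d1 starts overlap and held the same 3 GC boxes. No measurement reported here was made on any of these windows.

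Counts on genes summed to 10.5 M in CFA replicate 1 and to 28.8 M in CFA replicate 2, a depth ratio of 2.74. For the 15115 genes counted 10 times or more in each library, the log2 ratio (replicate 2 over replicate 1) had a median of -0.01 and an SD of 0.29. Values are given as counts per 1000000 counts of the library (CPM), with exact 95% Poisson intervals that cover counting error only, and as mean ± SD of the 2 libraries. CPM does not correct for transcript length, so levels set between genes are shares of reads, whereas the comparison of 1 gene between libraries does not depend on length.

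P2rx3 had the highest level of the 3 genes. It was counted 5232 times in replicate 1, which is 497 CPM (484 to 511), and 13315 times in replicate 2, which is 462 CPM (454 to 470). The intervals did not overlap, and replicate 1 was the higher library. The mean was 480 ± 25.0 CPM (SD, n = 2), a coefficient of variation of 5.22%. P2rx3 ranked 235 in replicate 1 and 265 in replicate 2 among the 21122 genes with a count in either library, which placed its mean within the top 1.18%.

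Scn11a came next. It was counted 3666 times in replicate 1, which is 348 CPM (337 to 360), and 10818 times in replicate 2, which is 375 CPM (368 to 382). Here replicate 2 was the higher library, again without overlap of the intervals. The mean was 362 ± 19.0 CPM (SD, n = 2), with a coefficient of variation of 5.24%, and the gene ranked 411 and 364 in replicates 1 and 2. Its mean lay within the top 1.81% of genes.

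Cacna2d1 had the lowest level of the 3 genes and the widest spread relative to its mean. It was counted 1402 times in replicate 1, which is 133 CPM (126 to 140), and 4696 times in replicate 2, which is 163 CPM (158 to 168). Replicate 2 was the higher library, and the intervals were apart. The mean was 148 ± 21.0 CPM (SD, n = 2), with a coefficient of variation of 14.2%, and the gene ranked 1570 and 1212. Its mean lay within the top 6.49% of genes. The order P2rx3, Scn11a, Cacna2d1 was the same in both libraries, and no library of one gene reached the range of the next. Together the 3 genes took 0.0979% of all counts in replicate 1 and 0.1000% in replicate 2. In a whole ganglion, fewer cells of a type and less RNA per cell cannot be told apart, so these levels do not show in which neurons or in how many of them the genes were expressed.

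**Figure D1:**
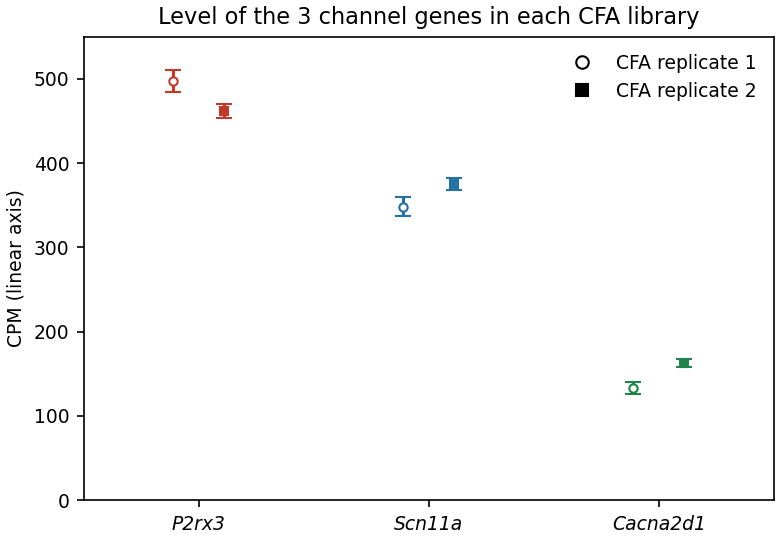
Level of P2rx3, Scn11a and Cacna2d1 in CPM in each of the 2 CFA libraries, with exact 95% Poisson intervals of the counts. P2rx3 lies at 497 and 462 CPM, Scn11a at 348 and 375 CPM and Cacna2d1 at 133 and 163 CPM, so the order of the genes is the same in both libraries.

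The ratio of 2 genes within a library does not depend on how the library was scaled. P2rx3 had 1.43 counts (1.37 to 1.49) for each count of Scn11a in replicate 1 and 1.23 (1.20 to 1.26) in replicate 2. For each count of Cacna2d1, P2rx3 had 3.73 counts (3.52 to 3.96) in replicate 1 and 2.84 (2.74 to 2.93) in replicate 2. Scn11a had 2.61 counts (2.46 to 2.78) and 2.30 counts (2.23 to 2.38) for each count of Cacna2d1 in replicates 1 and 2. All 3 ratios were higher in replicate 1, by 1.16-fold, 1.32-fold and 1.14-fold. The ratio of P2rx3 to Cacna2d1 is the product of the other 2, so the 3 ratios are not independent. Their direction depends on which gene of a pair is divided by the other. Two-sided Fisher's exact tests of the counts, adjusted by Benjamini-Hochberg over the 3 pairs, gave an adjusted p of 5.47e-09 for P2rx3 with Scn11a, 2.61e-15 for P2rx3 with Cacna2d1 and 0.000422 for Scn11a with Cacna2d1. These tests compare the 2 libraries, which are 2 rats of the same condition, and they show only that the libraries differed beyond counting error. A difference between the rats and one between the preparations cannot be told apart.

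Between libraries, P2rx3 differed in the other direction from Scn11a and Cacna2d1. The log2 ratio of replicate 2 to replicate 1 was -0.11 for P2rx3 (95% counting interval -0.15 to -0.06), 0.11 for Scn11a (0.05 to 0.16) and 0.29 for Cacna2d1 (0.20 to 0.38). All 3 intervals leave out equality, which was so for 25.6% of the 15115 genes. The interval narrows with the count, and among genes within 2-fold of the level of each member it left out equality for 64.1% around P2rx3, 59.3% around Scn11a and 44.3% around Cacna2d1. P2rx3 was above 13.7% of the 619 genes of like level in this log2 ratio, and Scn11a above 79.0% of 927, so both lay inside the bulk of such genes. Cacna2d1 was above 99.1% of 2500 genes of like level, whose 5th to 95th percentiles ran from -0.26 to 0.20, and 22 of them had a higher ratio. Set against all 15115 genes, which include low counts with wider scatter, Cacna2d1 was above 92.6%.

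**Figure D2:**
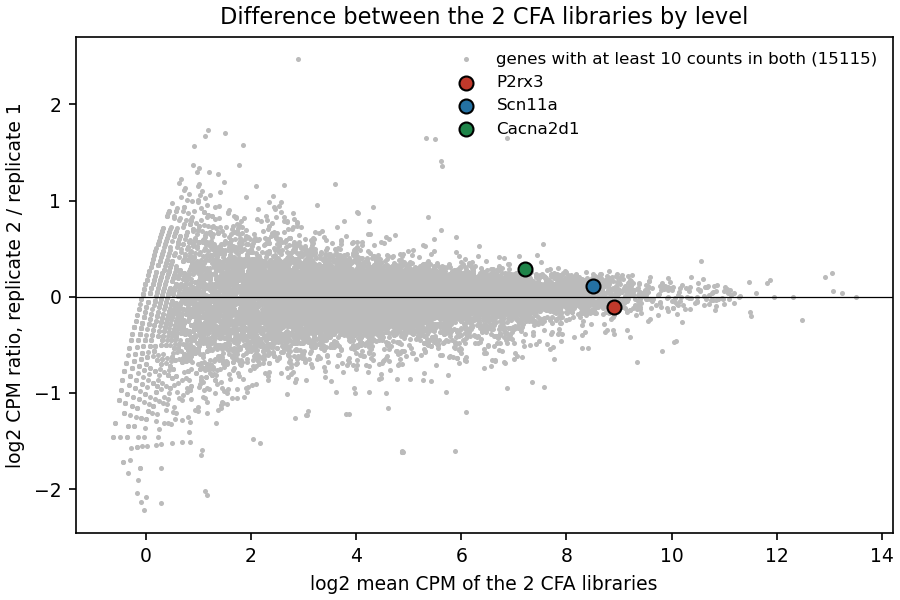
Log2 ratio of CPM in replicate 2 over replicate 1 against log2 of the mean CPM for genes counted 10 times or more in each CFA library, with the 3 members marked. P2rx3 at -0.11 and Scn11a at 0.11 lie within the cloud of genes of their level, and Cacna2d1 at 0.29 lies near its upper edge.

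The other channels gave the setting for each gene. They come from a list of 61 genes of channels, their subunits and ATP handling (the enzyme gene Entpd2 among them), all counted 10 times or more in each library, whose symbols are paired with Ensembl identifiers in the study's supplementary gene tables. Those tables hold genes that the study selected as changed, on these libraries among others, so the list is not a census of channels and well-known relatives such as P2rx2 and Trpv1 were not analysed here. Within the 61, P2rx3 had the 4th highest CPM in each library and Scn11a the 5th, while Cacna2d1 was 12th in replicate 1 and 10th in replicate 2. The 3 genes took 15.7% of the counts of the list in replicate 1 and 15.2% in replicate 2.

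Among sodium channels, the subunits ahead of Scn11a were Scn1a (Nav1.1, common in large myelinated neurons) at 612 and 642 CPM, Scn9a (Nav1.7, which amplifies small depolarisations in nociceptors) at 553 and 616 CPM, and Scn10a (Nav1.8, the other tetrodotoxin-resistant channel of nociceptors) at 541 and 578 CPM. Scn8a (Nav1.6, of nodes of Ranvier) followed at 238 and 268 CPM, and Scn3a (Nav1.3, mainly embryonic in this tissue) was at 23.9 and 22.0 CPM. Scn3a was thus the lowest of the 6, and the only one of them with a lower value in replicate 2. Its counting interval of the log2 ratio took in 0 (-0.33 to 0.10). The share of Scn11a in the counts of the 6 genes was steady, at 15.0% in both libraries (14.6% to 15.5% and 14.8% to 15.3%). Scn11a had 0.645 counts for each count of Scn10a in replicate 1 and 0.649 in replicate 2. The intervals of its ratio to each of the other 5 sodium channels overlapped between the libraries, which does not show that the ratios were equal. Scn10a and Scn11a also lie close together on chromosome 8 of GRCr8, with 1 protein-coding locus listed between them. The coding sequences of this family are similar, and how reads that match several genes were counted is not given in the sources used here.

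Among P2X receptors, P2rx3 took 90.7% of the counts of P2rx3, P2rx5 and P2rx7 in replicate 1 (89.9% to 91.4%) and 89.8% in replicate 2 (89.3% to 90.3%). P2rx5, whose product is another ATP-gated subunit, was at 33.7 and 31.1 CPM, and P2rx7, a receptor of satellite glia and immune cells opened by high ATP, was at 17.2 and 21.2 CPM. P2rx3 had 14.7 counts for each count of P2rx5 in replicate 1 and 14.8 in replicate 2, with overlapping intervals. Its ratio to P2rx7 was 28.9 (24.9 to 33.7) in replicate 1 and 21.8 (20.1 to 23.6) in replicate 2, without overlap. The ATP-releasing channel Panx1 was at 20.0 and 19.1 CPM and the ATP-degrading enzyme Entpd2 at 73.6 and 72.0 CPM. In this group of 5 genes, P2rx7 alone had a higher value in replicate 2, and the median log2 ratio was -0.07. The counting interval of the log2 ratio lay above 0 for P2rx7 and below 0 for P2rx3, and took in 0 for the other 3.

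Among calcium channel genes, Cacna2d1 took 22.7% of the counts of 9 genes in replicate 1 (21.7% to 23.8%) and 25.4% in replicate 2 (24.8% to 26.1%). The closest in level was Cacna1b, the pore of the N-type channel at sensory terminals, at 130 and 151 CPM. Cacna2d3, which encodes the related alpha-2-delta-3 subunit, was at 104 and 101 CPM, Cacna1a, the pore of the P/Q-type channel, at 98.3 and 101 CPM, and the beta subunit gene Cacnb4 at 67.4 and 70.2 CPM. The other 4, the T-type pore gene Cacna1g and the gamma subunit family genes Cacng4, Cacng5 and Cacng8, ranged from 1.43 to 34.2 CPM. Cacna2d1 had 1.02 counts for each count of Cacna1b in replicate 1 and 1.08 in replicate 2, with overlapping intervals. Against Cacna2d3 the ratio was 1.29 (1.19 to 1.39) in replicate 1 and 1.61 (1.54 to 1.69) in replicate 2. The intervals of this ratio did not overlap, nor did those against Cacna1a and Cacnb4. In this group the counting interval of the log2 ratio lay above 0 for Cacna2d1, Cacna1b at 0.22 (0.13 to 0.31) and Cacng5 at 0.37 (0.12 to 0.62), and below 0 for Cacng4 at -0.25 (-0.43 to -0.07). It took in 0 for the other 5, Cacna2d3 at -0.04 included. The interval thus left out equality for 4 of the 9 genes (44.4%). It did so for 44.3% of genes within 2-fold of Cacna2d1 and 25.6% of the 15115 genes. The other genes of the group lie at lower levels than Cacna2d1.

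**Figure D3:**
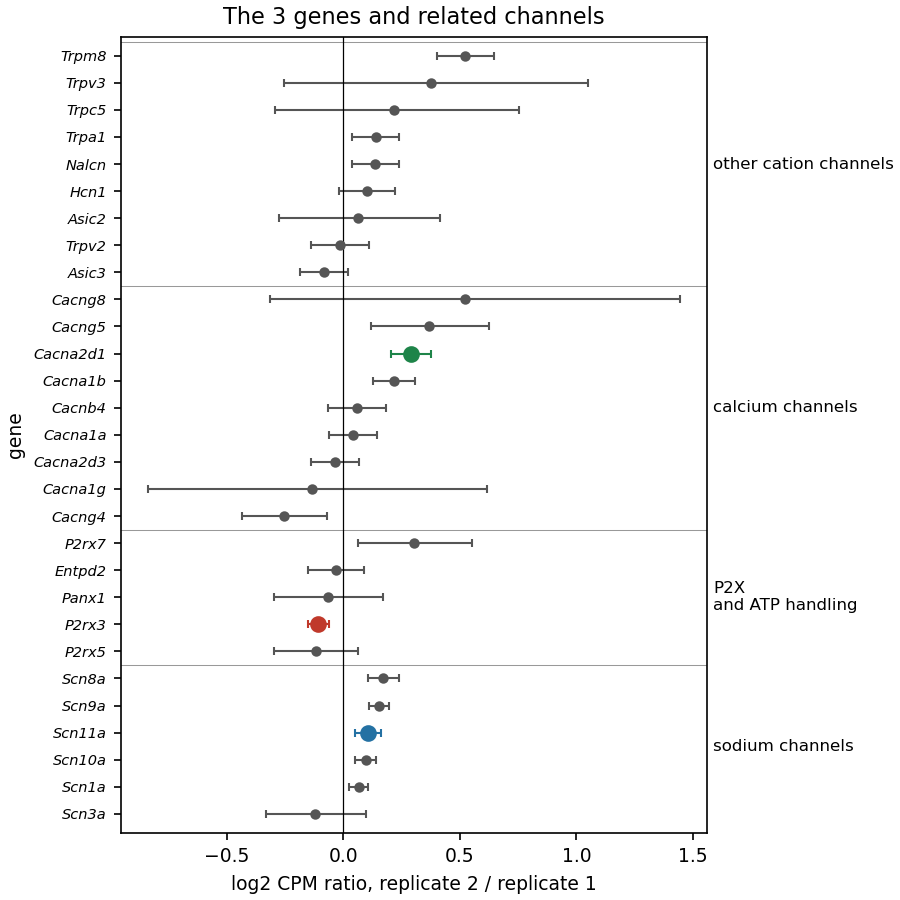
Log2 ratio of CPM in replicate 2 over replicate 1 for the sodium channel, P2X and ATP handling, calcium channel and other cation channel genes, with 95% counting intervals and the members marked. Of the sodium channel genes 5 of 6 lie above 0, of the P2X group 1 of 5, of the calcium channel genes 6 of 9 and of the other cation channel genes 7 of 9. Of all 15115 genes, 47.5% lie above 0. The interval takes in 0 for 1, 3, 5 and 6 genes of these groups in turn.

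Across the whole list, 43 of the 61 listed genes (70.5%) had a higher value in replicate 2, against 47.5% of the 15115 genes. The median log2 ratio of the list was 0.09. Among genes within 2-fold of the level of a member, 57.8% were higher around P2rx3, 57.5% around Scn11a and 53.0% around Cacna2d1. Genes matched in level to the whole list were not compared. Scn11a and Cacna2d1 had the direction of most listed genes and P2rx3 the other. The counting interval left out equality for 27 of the 61, with 23 higher and 4 lower in replicate 2, and P2rx3 was one of the 4. Over all 15115 genes it did so for 3866 (25.6%), with 1722 higher and 2144 lower. Many of those have low counts and wide intervals. Among genes within 2-fold of P2rx3, Scn11a and Cacna2d1 it did so for 64.1%, 59.3% and 44.3%. Of these, 238, 320 and 584 were higher and 159, 230 and 524 lower. The share of the list, 44.3%, was thus not beyond that of genes at the members' levels, though most listed genes lie lower. The 9 other cation channel genes ranged from 2.57 CPM for Trpv3 to 112 CPM for Trpa1. Trpa1, the irritant receptor of nociceptors, was at 102 and 112 CPM, Asic3, an acid sensor, at 97.9 and 92.5 CPM, and the sodium leak channel Nalcn at 98.6 and 109 CPM. Trpm8, the cold receptor, was at 66.4 and 95.5 CPM, a log2 ratio of 0.52 (0.40 to 0.65), which is larger than that of Cacna2d1. The 16 potassium channel genes had a median log2 ratio of 0.06 and the 16 transmitter-gated channel genes 0.09.

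Markers of the cells in the ganglion were present in both libraries, and none was at 0. The 6 nociceptor markers summed to 4256 CPM in replicate 1 and 4106 CPM in replicate 2. Of these markers, 4 had a lower value in replicate 2, against 7937 of the 15115 genes (52.5%). The counting interval of the log2 ratio lay below 0 for Calca (-0.21 to -0.14) and Calcb (-0.29 to -0.11) only. It took in 0 for Prph, Mrgprx1 and Tac1 and lay above 0 for Ret (0.03 to 0.12), so the markers had no common direction. Calca, which encodes the peptide CGRP, was at 1161 and 1028 CPM. Ret, the receptor tyrosine kinase of non-peptidergic nociceptors, was at 602 and 634 CPM. The 3 neurofilament markers of large-diameter neurons summed to 28289 and 29638 CPM and of these Nefh had a log2 ratio of 0.21 (0.20 to 0.22), Nefl of 0.03 (0.02 to 0.04) and Nefm of 0.0015 (-0.0080 to 0.0110). The 4 markers of sensory neurons in general summed to 3731 and 3762 CPM, with 3 of 4 higher in replicate 2, against 47.5% of the 15115 genes. The vesicular glutamate transporter gene Slc17a6 among them was at 179 and 217 CPM, a log2 ratio of 0.28 (0.20 to 0.35). The interval took in 0 for Tubb3 (-0.01 to 0.03) and Scg2 (-0.04 to 0.07) and lay below 0 for Avil (-0.09 to -0.01). The 8 markers of satellite glia and Schwann cells summed to 4785 and 4539 CPM, with log2 ratios from -0.26 to 0.06. Of these markers, 1 of 8 was higher in replicate 2, against 47.5% of the 15115 genes. The interval lay below 0 for Mbp, S100b, Pmp2 and Lgi4 and took in 0 for Gja1, Sox9, Egr2 and Prx. The 2 connective tissue and vessel markers summed to 546 and 528 CPM but differed in opposite directions. Col1a1 was at 524 and 501 CPM, a log2 ratio of -0.07 (-0.11 to -0.02). Kdr was at 22.4 and 27.3 CPM, a log2 ratio of 0.28 (0.07 to 0.50). The part of these marker levels in the differences between the libraries was not tested.

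The genes nearest to each member in level were sought among 1944 genes with a symbol, by the sum over the 2 libraries of the absolute difference in log2(CPM + 1). Nearest to P2rx3 were Adam23 (485 and 466 CPM, summed difference 0.049), Pmp2 (514 and 451 CPM, 0.082) and Dync1i2 (495 and 490 CPM, 0.093). Adam23 encodes a neuronal membrane protein of the disintegrin family, Pmp2 a lipid-binding protein of myelin and Dync1i2 a chain of the dynein motor. Nearest to Scn11a were Pcdha4 (349 and 371 CPM, 0.019), Glg1 (336 and 374 CPM, 0.059) and Vps35 (357 and 383 CPM, 0.064), which encode a protocadherin, a Golgi glycoprotein and a retromer subunit. Pcdha4 shares exons with the other alpha protocadherins, so its count is uncertain. Nearest to Cacna2d1 were Fry (141 and 166 CPM, 0.107), Copg2 (143 and 161 CPM, 0.120) and Cacna1b (130 and 151 CPM, 0.140). Likeness over 2 libraries of 1 condition is closeness in level only.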

How the data were processed

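RNA-seq of poly(A)-selected RNA was analysed for 2 CFA libraries, each from 1 rat, so the spread between them includes that between animals. The authors mapped the reads with HISAT2 (rn6), filtered out ribosomal RNA, obtained a raw count per Ensembl gene with featureCounts and deposited it unscaled. The library kit keeps strand, and the strand setting of the counting is not given in the sources used here. Counts summed to 10520647 and 28825688. They were scaled to CPM (count divided by the library total, times 1000000) in Python 3.11.15 with numpy 2.4.6 and pandas 2.3.3, and exact Poisson and binomial 95% intervals and Fisher's exact tests were computed with scipy 1.17.1. A minimum of 10 counts in both libraries and, for nearest genes, a pseudocount of 1 were used. TMM (edgeR 4.0.16) and size factors (DESeq2 1.42.0) in R 4.3.3 served as alternative scalings, as did leaving out single libraries and other gene filters. TMM and size factor scaling, and log2 ratios scaled by TMM, were tested on simulated data with counting error only. CPM scaling was not part of that test. The genes named are the members, the channel and marker lists, and the 3 genes nearest to each member. The members and lists were chosen with earlier results of these data known. From the nociceptor marker list, 1 gene is not reported here and was left out of its sum. Symbols came from the study's supplementary gene tables. Their columns of fold changes and p-values were not used. Figures were drawn with matplotlib 3.10.9.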

Additional observations from a re-analysis of the deposited data

How the results depend on the processing

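With 2 libraries, leaving out either one gives the value of the other, so this is no check of stability. Without the 5 genes with the highest counts in the total, the mean levels were 503 CPM for P2rx3, 379 CPM for Scn11a and 155 CPM for Cacna2d1. Ranking among the 15115 genes counted 10 times or more in each library, in place of all 21122 with a count, leaves fewer genes and placed P2rx3 within the top 1.65%, Scn11a within 2.53% and Cacna2d1 within 9.06%. With no count minimum, P2rx3 was above 35.2% of genes in its log2 ratio, Scn11a above 71.4% and Cacna2d1 above 88.0%. TMM and size factor scaling gave log2 ratios of -0.09 for P2rx3, 0.12 for Scn11a and 0.31 for Cacna2d1, with directions as before. They moved the share of all genes higher in replicate 2 from 47.5% to 50.9% and 51.3%, that of the 61 listed genes from 70.5% to 75.4%, that of potassium channel genes from 68.8% to 81.2% and that of other cation channel genes from 77.8% to 88.9%. No paired analysis was possible because the RNA-seq libraries belong to 1 group. Levels per transcript length and accessibility at the members were not run, since the reference tables at hand give no lengths and no rn6 annotation. Counts of 1402 or more behind each member value leave little counting error, and the number of rats limits the precision.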
